A study of Mus musculus with 25 samples.

Results

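The genes for 6 secreted proteins of innate defense, Saa3, Hp, Ptx3, Slpi, Lyz1 and Lyz2, were followed across the 9 conditions of a mouse macrophage RNA sequencing series. They are taken by symbol from the 24411 genes counted in each library, and all 6 had a row in every file. Saa3 encodes serum amyloid A3, Hp haptoglobin, which binds free hemoglobin, and Ptx3 the long pentraxin that coats microbes. Slpi encodes the secretory leukocyte protease inhibitor, which blocks neutrophil serine proteases, and Lyz1 and Lyz2 the 2 mouse lysozymes, which cut bacterial cell walls.

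The series held 25 samples. Bone marrow-derived macrophages (BMDMs) of C57BL/6 mice were grown for 4 days with M-CSF at 25 ng/ml and then left as controls, given IFN-γ at 100 U/ml with LPS at 100 ng/ml for 1, 4, 12 or 24 h, or given IL-4 or IL-13 at 10 ng/ml for 12 h, with 3 samples in each of these 7 groups. RAW264.7 cells, a macrophage line from a virus-induced tumor of BALB/c mice, were left as controls or given LPS alone at 100 ng/ml for 4 h, with 2 samples in each group. The study calls its IFN-γ-LPS cells IFN-γ-primed, while the labels give both agents with 1 time, and no separate IFN-γ pretreatment time is given in the sources used here. The methods call the BMDM replicates independent biological samples, and RAW264.7 is 1 line. The BMDM controls carry a culture time of 4 h in the labels, so in the 12 h and 24 h groups the agent and the longer culture cannot be told apart.

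Acute-phase proteins are plasma proteins whose synthesis changes during infection or injury, largely in the liver under IL-6, IL-1 and glucocorticoids. Serum amyloid A3 is the member of its family known to be made outside the liver, in macrophages and fat among other sites, and Ptx3 likewise differs from the short pentraxins Crp and Apcs in being made by myeloid and stromal cells. In mice, Lyz2 is the lysozyme of macrophages and neutrophils, while Lyz1 is the lysozyme of Paneth cells in the gut.

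Values are sense-strand counts per 1000000 (CPM), taken over all genes except the ribosomal RNA precursor Rn45s. Rn45s held 20.1 to 39.8% of the gene counts, which ranged from 2378639 to 3357300 per library, and 1502618 to 2532496 counts were left without it. At that depth 1 count was worth well under 1 CPM, so means of about 1 CPM rest on a few counts. Of the macrophage markers, 8 of 8 were detected in every BMDM group, and Mertk was at 0 in RAW264.7 cells. Of the hepatocyte markers, 5 of 5 (Alb, Apoa1, Ttr, Ahsg and Serpina1a) were at 0 counts in every sample. The 6 stroma and adipocyte markers summed to 42.3 to 62.9 CPM in control BMDMs. At 4 h of IFN-γ-LPS the sum was 41.8 to 77.2 CPM, and in RAW264.7 cells it was 0. Pdgfrb was at 2.97 to 5.36 CPM in control and 20.6 to 33.3 CPM at 4 h. Col1a1 was at 20.9 to 30.9 and 6.68 to 24.7 CPM. The part of such cells in the levels of the 6 genes was not tested. Of 14 granulocyte markers, 13 had a row, and their summed level was 168 to 206 CPM in control BMDMs, 101 to 108 CPM at 4 h, 259 to 333 CPM at 12 h and 216 to 257 CPM at 24 h of IFN-γ-LPS. Csf3r alone gave 193 to 231 CPM of that sum at 24 h, where 8 of the 13 were at 0, Mpo, Elane and Ltf among them. Mpo and Elane were at 0 in control BMDMs as well. From control to 24 h, the mean of S100a8 went from 9.22 to 17.2 CPM and that of Camp from 0.59 to 3.8 CPM. The mean of S100a9 went from 4.33 to 0.858 CPM and that of Ngp from 4.72 to 0 CPM.

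Differences were tested with edgeR, and p-values were adjusted over all genes tested. A gene is said to have risen or fallen at an adjusted p of at most 0.01, and to have passed both cutoffs when its log2 fold change also reached 1.5 in the IFN-γ-LPS comparisons, 0.7 for IL-4 and IL-13, or 2 in the RAW264.7 comparisons. The difference between the RAW264.7 and BMDM changes took the cutoff of 1.5. Fold changes are relative to the typical gene, since edgeR scales the libraries by the trimmed mean of M-values (TMM). The 4 comparisons of IFN-γ-LPS with control share the same 3 control samples.

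**Figure D1:**
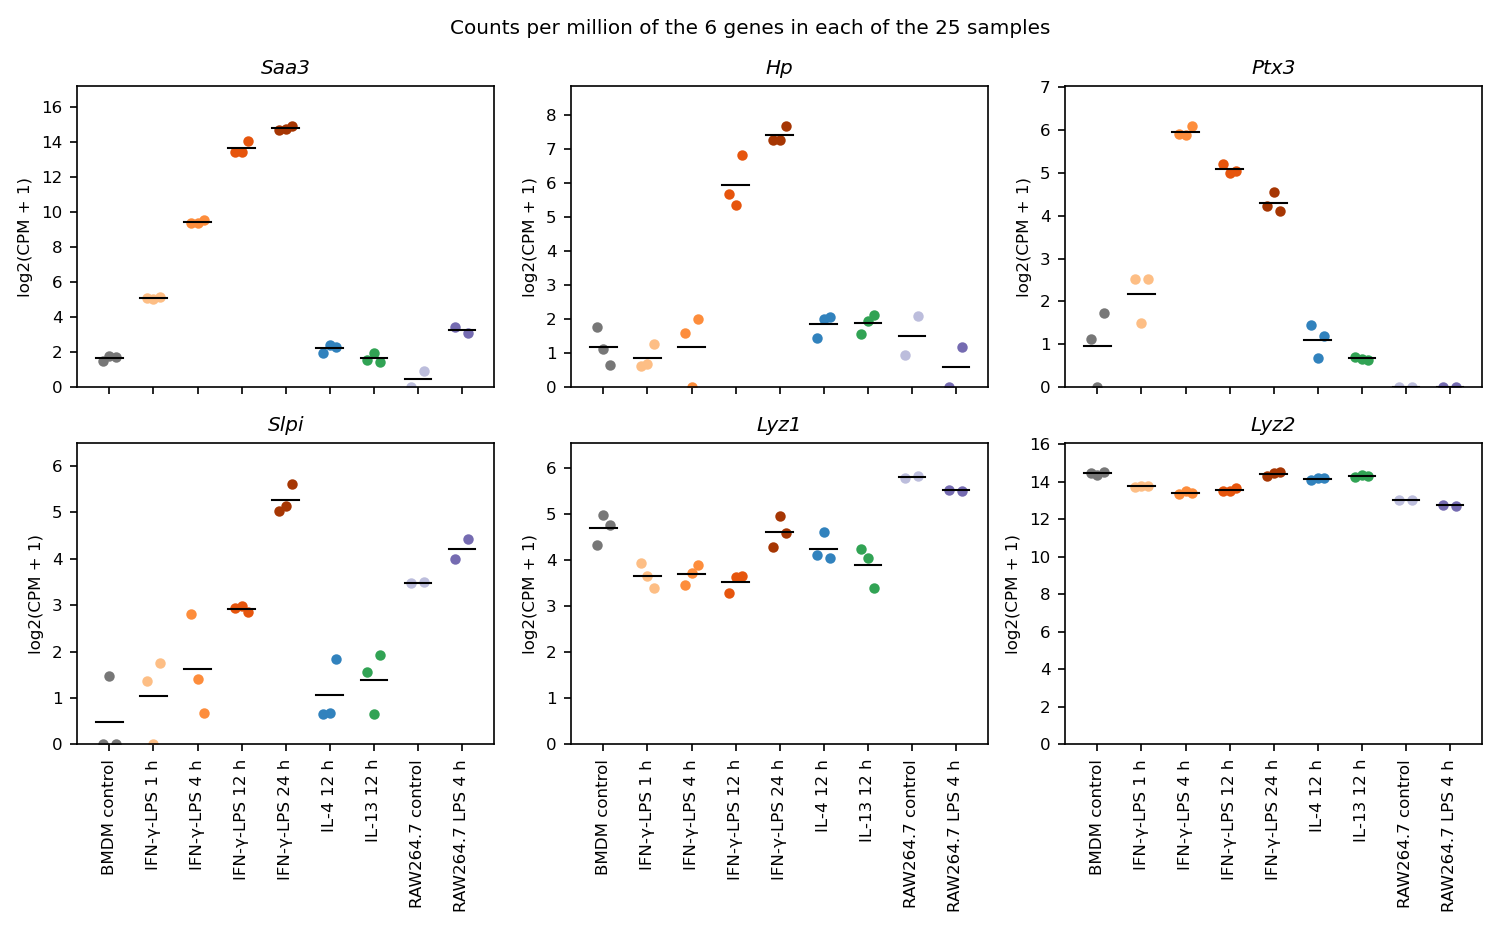
Level of each of the 6 genes in every sample, as log2(CPM + 1) on the vertical axis, with the 9 conditions on the horizontal axis; points are samples and bars are group means. Saa3 spans from 0 CPM in a RAW264.7 control to 30588 CPM at 24 h, while Lyz2 stays between 6774 and 23380 CPM in all 25 samples.

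Saa3 showed the widest range of the 6 genes. In control BMDMs it stood at 1.78, 2.38 and 2.33 CPM, that is 11 counts over the 3 libraries. The samples given IFN-γ-LPS had 33, 31.4 and 35.2 CPM at 1 h and 679, 673 and 761 CPM at 4 h. At 12 h the values were 10945, 11162 and 17035 CPM, with replicate 3 above the other samples of its group. At 24 h they reached 26237, 28151 and 30588 CPM. No sample of any of these groups overlapped the next group in time. These are bulk samples, in which fewer cells of a type and less RNA per cell cannot be told apart. By CPM, which is not corrected for gene length, Saa3 went from rank 10401 among the 13639 genes detected in control BMDMs to rank 3 of 13423 at 24 h, where it held 2.83% of all counts without Rn45s.

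Against control, the log2 fold change of Saa3 was 4.08 ± 0.41 (SE) at 1 h (adjusted p = 6.89e-08), 8.82 ± 0.27 at 4 h (adjusted p = 3.02e-17), 12.82 ± 0.26 at 12 h (adjusted p = 1.95e-20) and 13.85 ± 0.26 at 24 h (adjusted p = 6.28e-21). The ratio of CPM at 24 h to control was 13134, with a counting interval of 7340 to 26311 that is set by the 11 control counts. From step to step the log2 rise was 4.74 ± 0.18 between 1 h and 4 h (adjusted p = 2.67e-15), 4.00 ± 0.15 between 4 h and 12 h (adjusted p = 3.06e-15) and 1.03 ± 0.13 between 12 h and 24 h (adjusted p = 4.79e-06). The last step was under the fold cutoff of 1.5, and it was 1.29 without replicate 3 of the 12 h group.

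In BMDMs given IL-4, Saa3 stood at 2.9, 4.27 and 3.84 CPM, and in those given IL-13 at 1.93, 2.85 and 1.69 CPM. These levels rest on 18 and 11 counts and did not pass the filter on low counts, so they were not tested against control; the ratio to control was 1.69 for IL-4 (counting interval 0.754 to 3.95) and 0.998 for IL-13 (0.392 to 2.54).

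Saa3 lies on chromosome 7 of mm10 (GRCm38), minus strand, from 46711998 to 46715700 in GENCODE M21, with no other gene over it. Its RefSeq start lies inside that span, so the bases nearest the start in the window below belong to the gene by GENCODE. Its upstream sequence is shown because this gene had the largest change of the set. The RefSeq window (GRCm38.p6, chr7:46715677-46715926, minus strand) holds the 250 bases before the start, given here 5′ to 3′ on the gene's strand.
Saa3: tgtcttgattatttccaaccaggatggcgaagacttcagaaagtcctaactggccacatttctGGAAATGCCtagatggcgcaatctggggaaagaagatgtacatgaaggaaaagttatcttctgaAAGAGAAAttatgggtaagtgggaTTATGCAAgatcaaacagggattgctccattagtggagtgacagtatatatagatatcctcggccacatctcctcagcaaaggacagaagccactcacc
The capitals mark, in order, a match to the NF-kB letters GGNNTTTCC on the opposite strand (bases -187 to -179 from the start), a match to the IRF letters AANNGAAA (bases -123 to -116) and a match to the C/EBP letters TTGCNNAA on the opposite strand (bases -99 to -92). Of all 32851 RefSeq windows of this length, 4.93% hold the NF-kB letters, 21.3% the IRF letters and 9.56% the C/EBP letters on either strand. The window holds no match to the STAT letters TTCNNNGAA, the AP-1 letters TGANTCA or the TATA letters TATAAA, which 7.02%, 6.75% and 12.4% of windows hold. A match is a description of the letters only.

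Ptx3 followed another course. It stood at 1.19, 0 and 2.33 CPM in control BMDMs and at 4.78, 1.81 and 4.76 CPM after 1 h of IFN-γ-LPS. At 4 h it reached 59.2, 57.9 and 66.8 CPM, its highest level in the series. It then stood at 35.8, 30.8 and 32.2 CPM at 12 h and at 17.7, 22.5 and 16.2 CPM at 24 h, and these 3 groups did not overlap. The log2 fold change from control was 1.84 ± 0.59 at 1 h (adjusted p = 0.0115), which missed the threshold, then 6.13 ± 0.31 at 4 h (adjusted p = 2.07e-22), 5.02 ± 0.36 at 12 h (adjusted p = 5.10e-17) and 4.12 ± 0.40 at 24 h (adjusted p = 1.65e-12).

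The decline after 4 h was itself tested. Ptx3 fell by 1.11 ± 0.17 on the log2 scale between 4 h and 12 h (adjusted p = 2.52e-07) and by 0.90 ± 0.19 between 12 h and 24 h (adjusted p = 3.31e-04), both under the fold cutoff of 1.5. In the same steps Saa3 rose, as given above. With IL-4, Ptx3 stood at 1.74, 0.61 and 1.28 CPM, and with IL-13 at 0.642, 0.57 and 0.563 CPM, which is 1 count in each of the 3 IL-13 libraries.

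Ptx3 lies on chromosome 3, plus strand, from 66219910 to 66225805, inside Veph1 on the opposite strand; the counts used here are those of the sense strand. Its upstream window is shown for comparison with that of Saa3 (GRCm38.p6, chr3:66219637-66219886, plus strand).
Ptx3: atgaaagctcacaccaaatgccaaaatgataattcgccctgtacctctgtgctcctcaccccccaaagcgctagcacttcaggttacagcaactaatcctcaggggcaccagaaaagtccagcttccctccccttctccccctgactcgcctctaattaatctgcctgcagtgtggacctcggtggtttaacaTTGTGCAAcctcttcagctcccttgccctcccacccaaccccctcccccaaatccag
The capitals mark a match to the C/EBP letters TTGCNNAA on the opposite strand, at bases -57 to -50, and the window holds no match to the other 5 motifs searched. Slpi and Lyz1 also hold 1 match each to the C/EBP letters, at bases -241 to -234 and -209 to -202, and Lyz2 holds none of the 6 motifs. RefSeq windows were matched for 5 of the 6 genes, Hp being the exception.

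Hp rose late. Its level was 2.38, 1.19 and 0.582 CPM in control BMDMs, 0.532, 0.604 and 1.43 CPM at 1 h and 2, 0 and 3.01 CPM at 4 h, groups that overlapped and that hold 5 to 8 counts each. At 12 h it was 50.1, 40 and 114 CPM, and at 24 h 154, 154 and 203 CPM. Replicate 3 of the 12 h group was again the highest of its group, as for Saa3. The log2 fold change from control was -0.42 ± 2.03 at 1 h (adjusted p = 0.903) and 0.72 ± 1.84 at 4 h (adjusted p = 0.758). It was 5.88 ± 0.75 at 12 h (adjusted p = 3.63e-05) and 7.10 ± 0.64 at 24 h (adjusted p = 1.89e-06).

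Between 4 h and 12 h Hp rose by 5.16 ± 0.77 on the log2 scale (adjusted p = 1.92e-04). Between 12 h and 24 h its log2 difference was 1.21 ± 0.32 (adjusted p = 0.0182). That call depended on the fit: the adjusted p was 6.67e-04 by DESeq2, 0.0043 in 1 fit of all 25 samples, 0.00932 without TMM and 1.50e-06 once replicate numbers were fitted as a block (log2 difference 1.28). Without replicate 3 of the 12 h group that difference was 1.85 (adjusted p = 2.83e-15) and passed both cutoffs. Hp lies on chromosome 8, minus strand, from 109575128 to 109579172.

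Slpi was close to undetected in control BMDMs, with 0, 3 and 0 counts, or 0, 1.79 and 0 CPM. It stood at 1.59, 0 and 2.38 CPM at 1 h and at 5.99, 1.67 and 0.602 CPM at 4 h, and both groups overlapped the controls. The 12 h samples lay close together at 6.64, 6.85 and 6.26 CPM, and the 24 h samples at 31.6, 34 and 48.2 CPM, each group above all earlier ones. The log2 fold change from control was 1.34 ± 1.04 at 1 h (adjusted p = 0.34), 2.53 ± 0.93 at 4 h (adjusted p = 0.0188), 3.62 ± 0.73 at 12 h (adjusted p = 7.09e-05) and 6.06 ± 0.48 at 24 h (adjusted p = 4.58e-13). The 4 h value passed both cutoffs without control replicate 2, the only control with counts (5.62, adjusted p = 0.00207), and without replicate 3 of the 4 h group (3.02, adjusted p = 0.00475). Control replicate 2 also sets the size of the later changes, which were 6.72 at 12 h and 9.16 at 24 h without it. The CPM ratio of 24 h to control was 65.2, with a counting interval of 22.1 to 318.

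The largest step of Slpi was the last one, a rise of 2.44 ± 0.29 between 12 h and 24 h (adjusted p = 6.76e-08), and Slpi was the member that passed both cutoffs in that step. The level with IL-4 was 0.579, 0.61 and 2.56 CPM and with IL-13 1.93, 0.57 and 2.82 CPM, in both cases overlapping control. Slpi lies on chromosome 2, minus strand, from 164354070 to 164389095, and the start of its RefSeq window lies inside that span. Granulocytes are a known source of Slpi; the granulocyte markers given above did not exceed 333 CPM in sum in any BMDM group, and their part in the Slpi level was not tested.

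**Figure D2:**
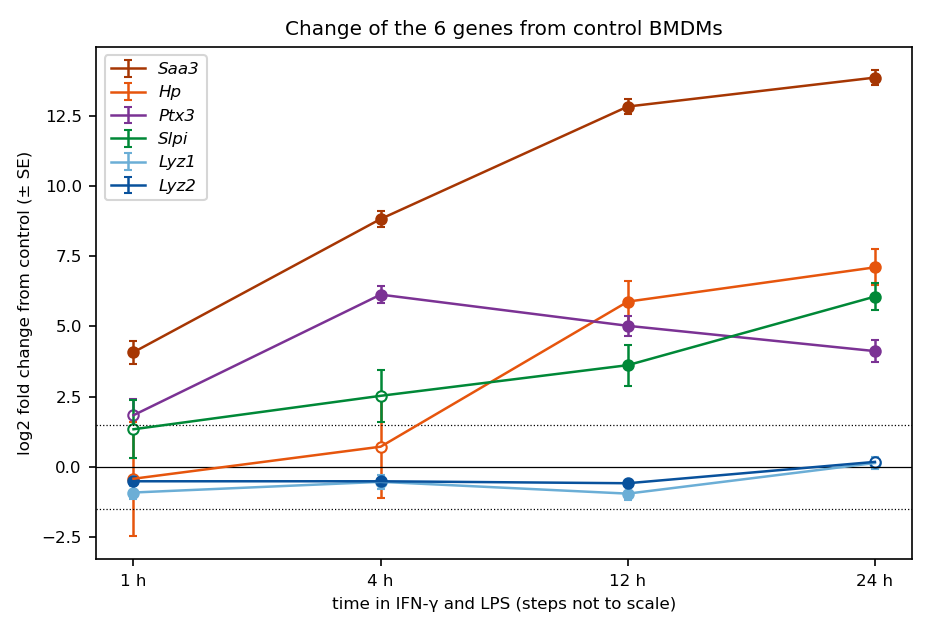
Log2 fold change from control BMDMs (vertical axis, ± SE, n = 3 per group) at 1, 4, 12 and 24 h of IFN-γ-LPS (horizontal axis, steps not to scale), with 1 line per gene; filled points have an adjusted p of at most 0.01, open points do not, and dotted lines mark the fold cutoff of ±1.5. Saa3 climbs to 13.85, Ptx3 is highest at 4 h with 6.13, Hp and Slpi reach 7.10 and 6.06 at 24 h, and both lysozymes stay within 1 log2 unit of control on the TMM scale.

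Of the 6 genes, 1 (Saa3) passed both cutoffs at 1 h, beside 7.12% of the 9568 genes tested, and 2 (Saa3 and Ptx3) passed them at 4 h, beside 22.8%. At 12 h and again at 24 h, 4 of 6 did (Saa3, Hp, Ptx3 and Slpi), beside 17.3% and 14.9% of all genes. In the steps between time points, 2 of 6 passed between 1 h and 4 h (14% of all genes), 2 of 6 between 4 h and 12 h (9.66%) and 1 of 6 between 12 h and 24 h (1.29%). Those that passed were higher at the later time in each case. The median log2 fold change of the 6 genes was 0.46, 1.63, 4.32 and 5.09 at 1, 4, 12 and 24 h, beside medians of -0.03, -0.07, -0.03 and 0.02 over all genes tested. Saa3, Hp, Ptx3 and Slpi had 11, 7, 6 and 3 counts over the control BMDMs. They passed the low-count filter through groups in which they were high, so their direction was largely set by that filter. The 6 genes were also chosen with earlier results known, and these counts and medians are a description.

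The library scaling bears on the small changes. Without TMM the median of all genes moved to -0.22, -0.61, -0.34 and -0.20 at 1, 4, 12 and 24 h, so the changes of the lysozymes are given with both scalings. The 24 h, IL-4 and IL-13 libraries also differed from the other BMDM libraries in strandedness. The antisense share of Rn45s counts was 0.00603 to 0.0214% in those 9 libraries and 0.0386 to 0.122% in the 12 control, 1 h, 4 h and 12 h libraries. That of Lyz2 was 0.0281 to 0.0945% and 0.191 to 0.349%. This split runs along the conditions and cannot be told apart from them.

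Lyz2 was abundant throughout. It stood at 23011, 21463 and 23359 CPM in control BMDMs, rank 4 of the genes detected there. It stood at 13486, 14029 and 14215 CPM at 1 h, at 10419, 11657 and 10922 CPM at 4 h and at 11534, 11759 and 13207 CPM at 12 h of IFN-γ-LPS. At 24 h it was back at 20065, 22488 and 23380 CPM, within the span of the controls except for 1 sample on each side. All samples of 1, 4 and 12 h lay below all controls.

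Lyz2 fell by 0.51 ± 0.08 on the log2 scale at 1 h (adjusted p = 2.62e-06), by 0.51 ± 0.08 at 4 h (adjusted p = 1.07e-06) and by 0.58 ± 0.09 at 12 h (adjusted p = 7.24e-08), all under the fold cutoff. Without TMM these changes were -0.70, -1.04 and -0.90, and in every alternative run they kept their sign. At 24 h the log2 fold change was 0.18 ± 0.08 (adjusted p = 0.0648) with TMM and -0.04 without it, so no direction is given. Between 12 h and 24 h Lyz2 rose by 0.77 ± 0.09 (adjusted p = 8.24e-10), and by 0.85 without TMM.

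With IL-4, Lyz2 stood at 17592, 19232 and 18682 CPM and fell by 0.29 ± 0.07 on the log2 scale from control (adjusted p = 0.00179). With IL-13 it stood at 19653, 21007 and 20042 CPM, with a log2 fold change of -0.20 ± 0.07 (adjusted p = 0.0357). Without TMM these changes were -0.29 and -0.16. The adjusted p for IL-4 was 0.0362 without IL-4 replicate 1. No sample of either group overlapped the controls. Both changes were under the fold cutoff of 0.7.

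Lyz1 had counts in every sample, far below Lyz2 although their transcripts are of similar length (20 and 17182 CPM per kb in control BMDMs). Its control samples had 19, 30.4 and 26.2 CPM. After 1 h of IFN-γ-LPS the values were 14.4, 11.5 and 9.52 CPM, after 4 h 9.98, 12.2 and 13.8 CPM and after 12 h 8.69, 11.4 and 11.6 CPM. The 24 h samples had 18.6, 29.9 and 22.9 CPM. The 1, 4 and 12 h samples lay below the controls and the 24 h samples overlapped them. Lyz1 fell by 0.91 ± 0.24 at 1 h (adjusted p = 0.00192) and by 0.95 ± 0.24 at 12 h (adjusted p = 8.44e-04), and its change at 4 h was -0.53 ± 0.25 (adjusted p = 0.0575). Without TMM the changes at 1, 4 and 12 h were -1.10, -1.06 (adjusted p = 1.55e-04) and -1.26, so the call at 4 h rests on the scaling. The falls at 1 h and 12 h missed the threshold by DESeq2 (adjusted p = 0.0203 and 0.0109) and without control replicate 2 (0.0273 and 0.0143). They also missed it without replicate 3 of the 1 h group (0.029) and without replicate 1 of the 12 h group (0.0114). At 24 h the log2 fold change was 0.14 ± 0.20 (adjusted p = 0.581) with TMM and -0.09 without it, and Lyz1 rose by 1.08 ± 0.23 between 12 h and 24 h (adjusted p = 3.74e-04), or by 1.17 without TMM.

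With IL-13, Lyz1 stood at 18, 15.4 and 9.57 CPM and fell by 0.87 ± 0.23 from control (adjusted p = 0.00592), the 1 change of a member that passed both cutoffs among the IL-4 and IL-13 comparisons. Without TMM its change was -0.83. DESeq2 gave an adjusted p of 0.0795, and the adjusted p also rose to 0.0123 in a fit of these 2 groups alone and to between 0.0112 and 0.0685 without control replicate 2 or 3 or IL-13 replicate 2 or 3. With IL-4, Lyz1 stood at 16.2, 23.2 and 15.4 CPM, a log2 fold change of -0.47 ± 0.22 (adjusted p = 0.181), or -0.46 without TMM. Only Lyz1 and Lyz2 passed the low-count filter in the IL-4 and IL-13 fit. So 0 of 6 genes passed both cutoffs with IL-4 (3.86% of the 9252 genes tested; by edgeR, 2 of 6 had an unadjusted p under 0.05) and 1 of 6 with IL-13 (5.36%), and 0 of 6 differed between IL-13 and IL-4 by these cutoffs (0.0649% of all genes; 0 of 6 had an unadjusted p under 0.05).

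Lyz1 and Lyz2 lie side by side on chromosome 10, both on the minus strand, at 117287797 to 117292868 and 117277331 to 117282321. Their GENCODE M21 transcripts, 1263 and 1316 bases long, are identical at 96% of the 1262 aligned bases. Of the 1163 stretches of 101 bases in the Lyz1 transcript, the length of 1 read, 22 (1.89%) also occur unchanged in the Lyz2 transcript. The authors' counting kept uniquely mapped reads only, so read pairs that fit both genes equally well are lost from both. The reads are paired, and how many pairs were lost was not tested. Whether some Lyz1 counts come from Lyz2 molecules was not tested, and the Lyz1 level is uncertain to that extent. The 50 bases next to each RefSeq start are the same in both genes, and all but 1 of them lie inside Lyz2 by GENCODE. The 100 bases before those are shown because these neighbors differ so far in level while their upstream letters are close to each other (GRCm38.p6, chr10:117292919-117293018 and chr10:117282323-117282422, minus strand).
Lyz1: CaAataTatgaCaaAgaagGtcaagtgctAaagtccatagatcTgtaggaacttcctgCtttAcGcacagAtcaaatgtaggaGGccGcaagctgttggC
Lyz2: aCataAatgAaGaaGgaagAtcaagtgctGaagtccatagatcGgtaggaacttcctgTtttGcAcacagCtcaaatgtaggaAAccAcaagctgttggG
Capitals mark bases that differ or have no partner in the alignment. These stretches are identical at 84 of 99 aligned bases (84.8%).

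Lyz1 made up 0.0477 to 0.141% of the counts of both lysozymes in the 21 BMDM samples, with a median of 0.0927%, and the range of each treated BMDM group overlapped that of control (0.0826 to 0.141%). The lowest share, 0.0477%, was in an IL-13 sample with 17 Lyz1 counts. In the 4 RAW264.7 samples the share was 0.625, 0.651, 0.646 and 0.644%. The exact binomial interval of the highest BMDM sample (0.105 to 0.186%) lay below that of the lowest RAW264.7 sample (0.517 to 0.749%); these intervals cover counting error only. RAW264.7 cells and BMDMs differ in mouse strain and culture as well as in cell type, and these cannot be told apart.

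**Figure D3:**
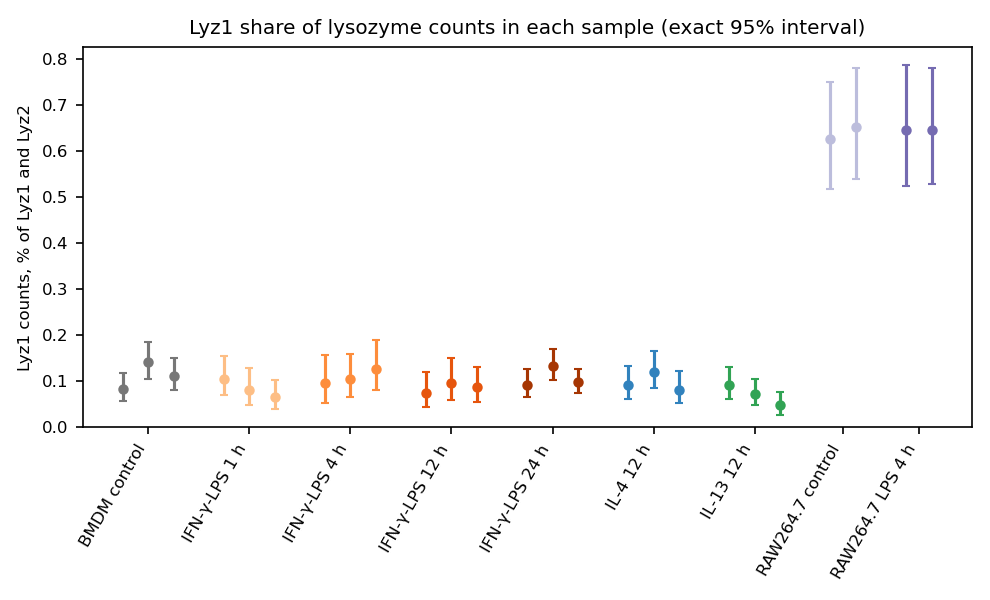
Share of Lyz1 in the summed Lyz1 and Lyz2 counts of each sample, in percent (vertical axis), by condition; bars are exact 95% binomial intervals, which cover counting error. All 21 BMDM samples lie at or below 0.141% and all 4 RAW264.7 samples at or above 0.625%.

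The IFN-γ-LPS and the IL-4 or IL-13 cultures share a treatment time of 12 h, so they were compared directly, in a fit of all 25 samples. Their libraries lie on opposite sides of the strandedness split given above, so that split and the treatment cannot be told apart here. Against IL-4, Saa3 was higher by 12.13 ± 0.25 on the log2 scale (adjusted p = 1.33e-23), Hp by 5.03 ± 0.58 (adjusted p = 7.15e-07), Ptx3 by 5.03 ± 0.36 (adjusted p = 1.05e-20) and Slpi by 2.71 ± 0.60 (adjusted p = 1.36e-04). Against IL-13 the differences were 12.90 ± 0.26, 5.00 ± 0.57, 6.02 ± 0.40 and 2.22 ± 0.55, with adjusted p at or below 5.54e-04. All 4 genes were higher in 3 of 3 IFN-γ-LPS samples than in any sample of either other group. Lyz2 was lower, by -0.26 ± 0.08 against IL-4 (adjusted p = 0.00531) and -0.36 ± 0.08 against IL-13 (adjusted p = 1.13e-04), under the fold cutoff. Without TMM these differences were -0.61 (adjusted p = 4.02e-11) and -0.74 (adjusted p = 3.77e-14). For Lyz1 they were -0.44 ± 0.26 (adjusted p = 0.153) and -0.05 (adjusted p = 0.897), and -0.79 (adjusted p = 0.00684) and -0.43 (adjusted p = 0.17) without TMM. The adjusted p of Lyz2 against IL-4 was 0.0122 without the low-count filter, 0.0183 in a fit of these groups alone, and between 0.0247 and 0.0765 without replicate 1 or 2 of the 12 h group or replicate 2 or 3 of the IL-4 group. So 4 of 6 genes passed both cutoffs in each comparison, beside 16% of 10612 genes in the first and 16% in the second. Here too these 4 genes passed the low-count filter through groups in which they were high.

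In RAW264.7 cells Saa3 stood at 0 and 0.936 CPM in controls, from 0 and 2 counts, and at 9.75 and 7.53 CPM after 4 h of LPS. It rose by 4.22 ± 0.66 on the log2 scale (adjusted p = 1.69e-09), and the CPM ratio was 18.5 with a counting interval of 4.79 to 158. Without control replicate 2, the control with the 2 counts, the log2 change was 7.34, and without control replicate 1 it was 3.28. Its LPS level remained below the 1 h level of BMDMs given IFN-γ-LPS, with no overlap between samples. Slpi stood at 10.1 and 10.3 CPM in controls and at 14.9 and 20.5 CPM with LPS, a rise of 0.98 ± 0.28 by edgeR (adjusted p = 0.0025) that was under the fold cutoff of 2 and had an adjusted p of 0.165 by DESeq2, 0.0171 without TMM and 0.0354 in 1 fit of all 25 samples.

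Hp stood at 0.918 and 3.28 CPM in RAW264.7 controls and at 0 and 1.25 CPM with LPS, from 12 counts in all. Ptx3 had 0 counts in all 4 RAW264.7 samples, which allows a mean level of up to 0.695 CPM in controls and 0.66 CPM with LPS at 3 counts over each group. Neither gene passed the low-count filter there. Lyz2 stood at 8538 and 8430 CPM in controls and at 6931 and 6774 CPM with LPS, a log2 fold change of -0.13 ± 0.06 (adjusted p = 0.0897), and Lyz1 at 53.7 and 55.2 CPM and at 45.1 and 43.9 CPM, a log2 fold change of -0.11 ± 0.16 (adjusted p = 0.611). Thus 1 of 6 genes passed both cutoffs, beside 3.22% of 9406 genes. That gene, Saa3, passed the low-count filter through the LPS group. Without TMM, Lyz2 had a log2 fold change of -0.31 with an adjusted p of 4.66e-06, and Lyz1 one of -0.29 with an adjusted p of 0.128.

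Unstimulated RAW264.7 cells were also set against control BMDMs. Slpi was higher in the line by 3.70 ± 0.68 on the log2 scale (adjusted p = 3.19e-06), at 10.2 ± 0.142 CPM (SD, n = 2) against 0.596 ± 1.03 CPM (SD, n = 3), and by 6.92 without BMDM control replicate 2. Lyz1 was higher by 0.86 ± 0.19 (adjusted p = 5.91e-05) and Lyz2 lower by -1.67 ± 0.10 (adjusted p = 4.77e-26), both under the fold cutoff of 2, and without TMM these differences were 1.11 and -1.41. Ptx3, with 0 counts in the line and 6 in the control BMDMs, had a log2 difference of -4.13 ± 1.42 (adjusted p = 0.00757). The counting interval of its ratio, 0 to 1, reaches no difference. Its adjusted p was 0.0255 with DESeq2 and up to 0.0749 without 1 library. Saa3 and Hp differed by -2.28 ± 1.17 (adjusted p = 0.0829) and 0.33 ± 1.56 (adjusted p = 0.862). So 2 of 6 genes passed both cutoffs, beside 23% of 10612 genes.

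The change with LPS in RAW264.7 cells was compared with the change at 4 h of IFN-γ-LPS in BMDMs, 2 treatments that differ by IFN-γ as well as in the cells. For Saa3 the difference was -4.76 ± 2.20 on the log2 scale (adjusted p = 0.104), and DESeq2 gave -4.55 with an adjusted p of 7.59e-04. For Slpi it was -1.66 ± 0.96 (adjusted p = 0.195) and for Hp -2.20 ± 2.48 (adjusted p = 0.563). For Lyz1 and Lyz2 it was 0.32 ± 0.31 (adjusted p = 0.468) and 0.29 ± 0.13 (adjusted p = 0.0699), or 0.77 (adjusted p = 0.0378) and 0.73 (adjusted p = 2.28e-07) without TMM. By edgeR 0 of 6 genes passed both cutoffs here, beside 12.4% of all genes, and 2 of 6 (Saa3 and Lyz2) had an unadjusted p under 0.05; by DESeq2 1 of 6 passed. Ptx3 could not be fitted, having no counts in the line; at 4 h its level in the line was at least 92.9-fold lower than in BMDMs.

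Per length, the order of the genes at 24 h depends on which exons are counted. With the main transcript of each gene, Saa3 (555 bases) stood at 51037 ± 3929 CPM per kb (SD, n = 3) and Lyz2 (1316 bases) at 16700 ± 1304. With all annotated exons of Saa3, 2606 bases, its level was 10869 ± 837 CPM per kb, below that of Lyz2. Hp, Slpi, Lyz1 and Ptx3 followed at 127, 43.3, 18.8 and 9.9 CPM per kb of main transcript. In control BMDMs Lyz2 stood at 17182 CPM per kb and the other 5 genes between 0.618 and 20.

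The relatives of these genes in the acute-phase family were near or at 0. Saa1, which like Saa2 is a liver-derived serum amyloid A, had 0 counts in control BMDMs, 13 counts over the 3 libraries at 12 h and 12 at 24 h. Saa2 had 2 and 1 counts there, and Saa4, Crp and Apcs had 0 counts in all 25 samples. The Saa3 main transcript is identical to that of Saa1 at 74.3% of aligned bases and to that of Saa2 at 73%, and 0 of its 455 stretches of 101 bases occur in either.

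Of 28 other acute-phase genes, 4 passed the low-count filter in the IFN-γ-LPS time course. Of these 4, 2 passed both cutoffs at 1 h and 4 at each of 4, 12 and 24 h, all higher. Over all genes tested, 7.12% passed at 1 h and 22.8%, 17.3% and 14.9% at 4, 12 and 24 h. The 4 genes had control means of at most 2.37 CPM and passed the filter through groups in which they were high. Their direction was thus largely set by that filter. Lcn2, which encodes lipocalin 2, a protein that binds bacterial siderophores, rose from 0.794 ± 1.38 CPM (SD, n = 3) in control to 19.8 ± 4.24 CPM at 4 h (adjusted p = 9.15e-04) and 1117 ± 66.8 CPM at 24 h (adjusted p = 5.48e-09). Cp, which encodes the copper-carrying ceruloplasmin, rose from 2.37 ± 1.05 CPM to 20 ± 4.58 CPM at 4 h (adjusted p = 0.00601) and 134 ± 1.53 CPM at 24 h (adjusted p = 6.90e-06). Both also passed higher between 4 h and 12 h, as Saa3 and Hp did (adjusted p = 7.21e-07 for Lcn2 and 0.00484 for Cp), and neither passed both cutoffs between 12 h and 24 h. Serpina3f and Serpina3g, mouse relatives of antichymotrypsin, were highest at 4 h, at 56.1 and 96.9 CPM. They fell by 3.47 ± 0.23 (adjusted p = 1.85e-17) and 1.76 ± 0.16 (adjusted p = 4.81e-13) on the log2 scale between 4 h and 12 h, as Ptx3 did with a smaller change. In RAW264.7 cells 1 of the 28, Cp, was tested with LPS and 0 passed. Cp stood there at 273 CPM in controls and 163 CPM with LPS. In RAW264.7 controls it was higher than in control BMDMs by 6.56 ± 0.51 on the log2 scale (adjusted p = 2.04e-09). With IL-4 or IL-13, 0 of 28 passed the low-count filter.

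Of 35 other secreted antimicrobial and antiprotease genes, a list that also holds Lcn2, 7 were tested in the time course. At 4 h 2 of them passed higher and 0 lower, and at 24 h 3 passed higher and 2 lower. Over all genes tested, 22.8% passed at 4 h and 14.9% at 24 h in either direction. The median log2 fold change was 1.32 at 4 h and 1.11 at 24 h, beside -0.07 and 0.02 over all genes. Serpinb2, an inhibitor of plasminogen activators, rose from 16.5 ± 5.19 CPM to 46.7 ± 6.53 CPM at 4 h (adjusted p = 1.99e-10) and 78.7 ± 19.4 CPM at 24 h (adjusted p = 4.93e-14). Wfdc17, which carries the same kind of whey acidic protein domain as Slpi, rose from 86.7 ± 6.57 to 235 ± 17.2 CPM at 24 h (adjusted p = 9.26e-10). In RAW264.7 cells 1 of 3 tested genes passed, Serpinb2, which had 0 counts in controls and stood at 43.9 ± 1.71 CPM with LPS (SD, n = 2). Serpinb2 thus passed the low-count filter there through the LPS group. With IL-4 and with IL-13, 0 of 5 tested genes passed. Over all genes tested, 3.22% passed in RAW264.7 cells, 3.86% with IL-4 and 5.36% with IL-13.

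Genes of the signaling that controls acute-phase genes made up another list. It holds cytokines, receptors and transcription factors, not inducing signals alone. It also holds Socs3, an inhibitor of cytokine signaling, which passed both cutoffs higher at 1, 4, 12 and 24 h. Of 20 genes of this list, 19 were tested in the time course. Of these, 11, 13, 12 and 11 passed both cutoffs higher and 0, 2, 2 and 2 lower at 1, 4, 12 and 24 h. Over all genes tested, 7.12%, 22.8%, 17.3% and 14.9% passed in either direction. The median log2 fold changes of the list were 1.99, 3.43, 1.90 and 2.01, beside -0.03, -0.07, -0.03 and 0.02 over all genes. Il6, Socs3, Lif, Il1a and Il1b had control means of 0, 0.79, 1.38, 1.77 and 2.76 CPM. They passed the low-count filter through groups in which they were high, so their direction was largely set by that filter. Il6, which encodes the main inducer in liver, had 0 counts in control BMDMs and stood at 503 ± 20.1 CPM at 4 h (adjusted p = 5.74e-13) and 136 ± 22.2 CPM at 24 h (adjusted p = 2.06e-10). Il1b, which encodes interleukin-1β, stood at 2.76 ± 1.83 CPM in control, 5458 ± 369 CPM at 4 h (adjusted p = 7.76e-34) and 3562 ± 541 CPM at 24 h (adjusted p = 2.01e-32). Cebpa, which encodes the transcription factor C/EBPα, fell from 490 ± 38.9 CPM to 8.8 ± 2.37 CPM at 4 h (adjusted p = 3.01e-31) and 44.2 ± 8.92 CPM at 24 h (adjusted p = 4.14e-28). The other C/EBP genes of the list went the other way in their means. Cebpb had 24.2 CPM in control, 87.2 CPM at 4 h and 67.2 CPM at 24 h, and Cebpd had 21.3, 33.8 and 73.7 CPM. Il6ra, which encodes the ligand-binding chain of the IL-6 receptor, fell from 33 ± 7.99 CPM to 4.14 ± 2.14 CPM at 4 h (adjusted p = 1.18e-09), and Il6st, its signaling chain, from 100 ± 5.92 to 26.3 ± 2.1 CPM at 24 h (adjusted p = 3.41e-15).

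In RAW264.7 cells 11 of 19 tested genes of this signaling list passed higher with LPS and 0 lower, with a median log2 fold change of 2.36. Over all genes tested there, 3.22% passed in either direction. Il6, Il1a and Lif had means of 0 CPM in RAW264.7 controls and Il1b one of 0.693 CPM. These genes passed the low-count filter through the LPS group. Il6 stood there at 75.2 ± 11.2 CPM (adjusted p = 6.89e-93) and Il1b at 2715 ± 28.5 CPM with LPS, from 0 and 0.693 CPM. With IL-4, 1 of 14 tested genes of the list passed higher and 2 lower, and with IL-13 1 and 2. Over all genes tested, 3.86% passed with IL-4 and 5.36% with IL-13. Il6st rose from 100 CPM to 166 ± 14.2 CPM with IL-4 (adjusted p = 8.81e-07) and 228 ± 23.5 CPM with IL-13 (adjusted p = 7.66e-13), and Nfkbiz, a nuclear cofactor of NF-kB, fell from 21.9 ± 3.93 to 8.74 ± 0.553 CPM (adjusted p = 1.53e-04) and 8.75 ± 2.21 CPM (adjusted p = 7.20e-05).

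Receptors, ligands and protease targets of the 6 proteins made up the last list, with 17 of 22 genes tested in the time course. At 4 h 8 passed higher and 2 lower, and at 24 h 7 higher and 4 lower, with median log2 fold changes of 1.37 and 0.28. Over all genes tested, 22.8% and 14.9% passed in either direction, with medians of -0.07 and 0.02. Fpr1 and Fpr2 had control means of 0.393 and 0.198 CPM and passed the low-count filter through groups in which they were high. Fpr2, a formyl peptide receptor that also binds serum amyloid A, rose from 0.198 ± 0.343 CPM to 78.5 ± 6.2 CPM at 4 h (adjusted p = 2.62e-17) and 528 ± 47.5 CPM at 24 h (adjusted p = 1.57e-23). Tlr2, another receptor for serum amyloid A, rose from 97.2 ± 14.4 CPM to 1720 ± 83.3 CPM at 4 h (adjusted p = 3.29e-30) and stood at 659 ± 63.1 CPM at 24 h (adjusted p = 1.04e-23). Other receptors of the list went the other way in their means. Tlr4 had 181 CPM in control, 50.6 CPM at 4 h and 76.6 CPM at 24 h, and Scarb1 had 160, 73.7 and 56.9 CPM. Cd36, a scavenger receptor, fell from 1259 ± 66.3 to 305 ± 53.5 CPM at 24 h (adjusted p = 2.26e-12).

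Cd163, the receptor for haptoglobin bound to hemoglobin, had a mean of 0 CPM in all 9 conditions; it was named after its values were seen. Hmox1, which encodes heme oxygenase 1, fell from 209 ± 20 to 33.8 ± 1.83 CPM at 4 h (adjusted p = 2.35e-18), and its mean was 661 CPM at 12 h and at 24 h. Lrp1, a receptor that takes up heme bound to hemopexin, fell from 1613 ± 307 to 384 ± 81.4 CPM at 4 h (adjusted p = 5.16e-04) and 234 ± 111 CPM at 24 h (adjusted p = 1.28e-05). Elane, the main protease target of Slpi, did not exceed a mean of 0.428 CPM in any condition and was also named after its values were seen. With IL-4 and IL-13, Fcgr2b, an Fc receptor that can bind pentraxins, rose from 38.5 ± 10.5 CPM to 176 ± 13.7 CPM (adjusted p = 4.51e-19) and 226 ± 21.4 CPM (adjusted p = 3.40e-22), while Tlr2 fell to 32.2 ± 12.8 CPM (adjusted p = 9.85e-11) and 44.4 ± 4.47 CPM (adjusted p = 4.12e-08). Among 14 genes of this list tested in RAW264.7 cells, 0 passed both cutoffs, beside 3.22% of all genes.

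**Figure D4:**
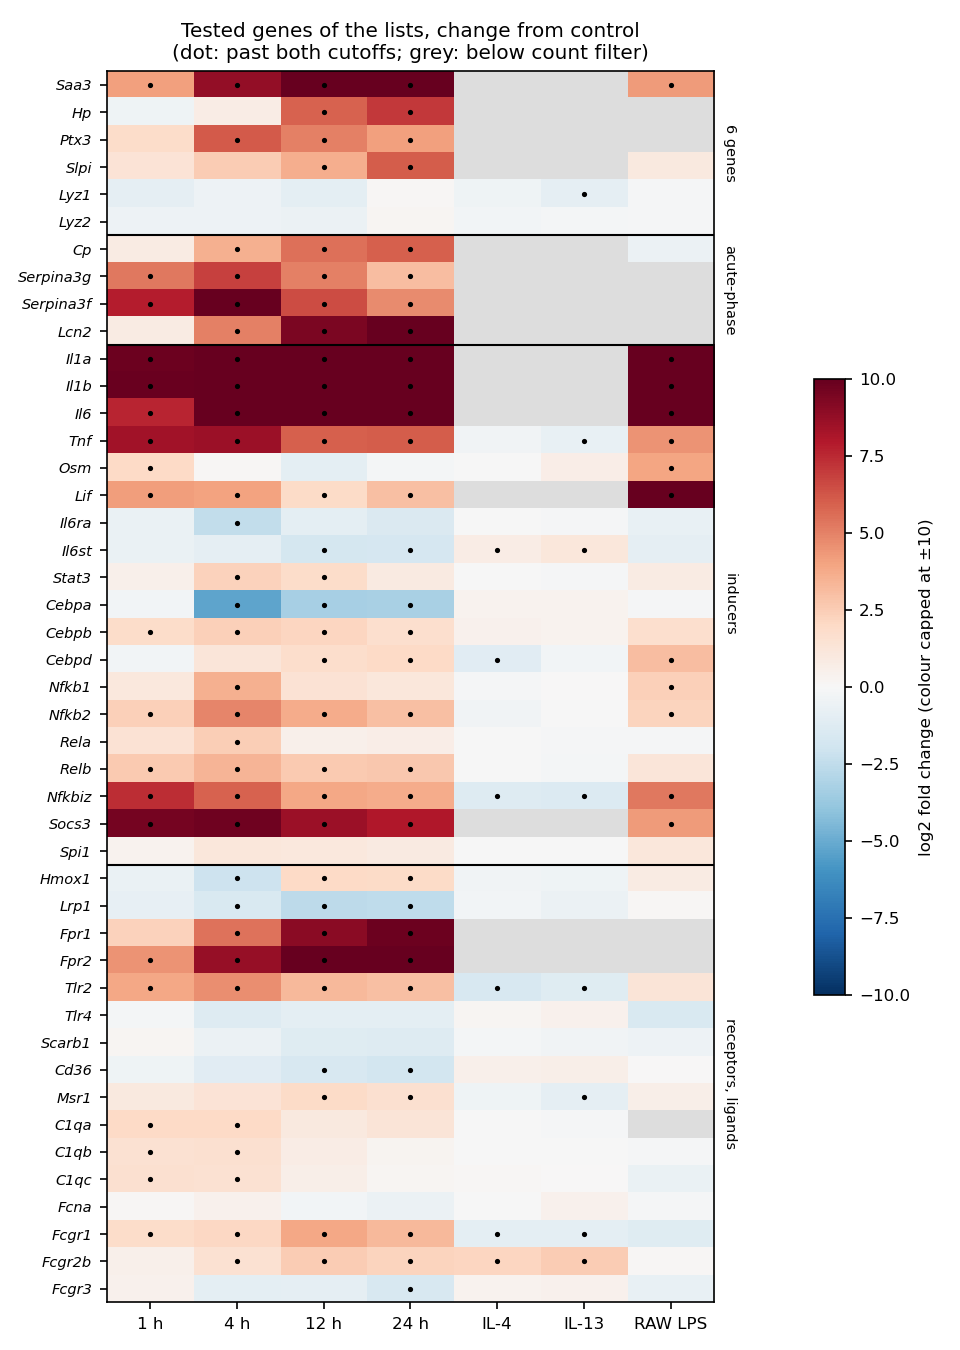
Log2 fold change from control (color, capped at ±10) of the 6 genes and of tested genes of 3 lists, in columns for IFN-γ-LPS at 1, 4, 12 and 24 h, IL-4, IL-13 and RAW264.7 LPS. The lists are 4 acute-phase genes, 19 genes of acute-phase signaling (labeled inducers) and 16 of the 17 receptor or ligand genes. Dots mark genes past both cutoffs and grey cells genes below the count filter. The Saa3, Hp, Lcn2 and Cp rows deepen from 4 h to 24 h, and the IL-4 and IL-13 columns are grey for Saa3, Hp, Ptx3 and Slpi.

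The genes whose pattern over the 9 condition means was most like that of each member were found by Pearson's r of log2(CPM + 1) among 9623 genes that reached 10 CPM in at least 1 condition. They are a description over 9 points that share libraries and controls. For Saa3 they were H2-T10 (r = 0.995), Cfb (0.992) and Bst2 (0.991), and for Hp Prdx1 (0.976), Dnajc1 (0.974) and Pgap2 (0.966). For Ptx3 they were Zufsp (0.99), Tspan33 (0.988) and Gbp11 (0.986), and for Slpi Cry1 (0.973), Trem3 (0.959) and Ifi27l2a (0.937). For Lyz1 they were Vps36 (0.979), Tecr (0.976) and Smim11 (0.973), and for Lyz2 Abca3 (0.988), Magee1 (0.987) and 2310067B10Rik (0.978). By Spearman's rho over the same points, only Cry1 for Slpi and Abca3 for Lyz2 stayed among the 3 most alike, and none did for Saa3, Hp, Ptx3 and Lyz1. Among the members themselves, r over the same 9 means was 0.88 for Saa3 and Ptx3, 0.838 for Saa3 and Hp, 0.132 for Ptx3 and Slpi, and -0.408 for Lyz1 and Lyz2. That last value includes the RAW264.7 means, where Lyz1 was highest of the 9 (54.5 and 44.5 CPM) and Lyz2 lowest (8484 and 6853 CPM). In BMDMs the means of both lysozymes were lower at 1, 4 and 12 h than in control. Their r over the BMDM means alone was not computed.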

How the data were processed

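RNA of the 25 samples was sequenced by the authors as stranded paired reads of 101 cycles, after a RiboMinus depletion of ribosomal RNA per the methods, where the labels name polyA RNA. The deposited files hold raw counts per gene, which the authors made with CASAVA 1.8.2, Trimmomatic 0.33 and STAR 2.5.1 on mm10, counting uniquely mapped reads; the annotation release is not given in the sources used here, and the submitters' notes also name DESeq2. Column 4 (sense) was used. The 4 rows that name no gene held 76.6 to 80.2% of each column and were left out, as was Rn45s, and CPM was computed here from the remaining 1502618 to 2532496 counts.

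Groups came from the labels. Tests used edgeR 4.0.16 in R 4.3.3 (quasi-likelihood, robust, TMM, filterByExpr by group), with Benjamini-Hochberg adjustment over all genes tested and SE taken as |log2 fold change| divided by the square root of F. The IFN-γ-LPS, IL-4 with IL-13, and RAW264.7 comparisons were each fitted with their own controls, and comparisons across them on all 25 samples. The scripts were tested on simulated data. P-values measure the spread between these samples. Ratio intervals and floors (3 counts over a group) cover counting error only.

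The 6 genes and all lists were chosen with earlier results of these data known. List genes were named where they passed both cutoffs and reached 5 CPM, up to 4 in each direction by fold change (1 gene of the receptor list is counted but not reported here), and the 3 genes most like each member by Pearson's r. Motifs were searched on both strands of the 250 bases before each RefSeq start with Biopython 1.88. Alternatives were DESeq2 1.42.0, no TMM, no filter, unstranded counts, Rn45s kept, other sample sets, a replicate block and leaving out each library. BMDM samples given LPS only were not analysed here.

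Replicate numbers were checked for pairing: the deviations of same-numbered BMDM samples had a mean correlation of 0.027, with 10 of 63 pairs over 0.1, so they were not treated as pairs.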

Additional observations from a re-analysis of the deposited data

Results flagged for a closer look

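Counts on the strand opposite to Saa3, which entered no comparison, stood above the controls late in the IFN-γ-LPS course. Saa3 antisense counts had a mean of 47 ± 12.4 CPM (SD, n = 3) at 12 h and 21.2 ± 8.3 CPM at 24 h, from 61 to 124 and 35 to 78 counts per library, and were at 0 in the control and 1 h libraries. At 4 h the mean was 1.84 CPM. They made up 0.311 to 0.423% of all Saa3 counts at 12 h and 0.0588 to 0.101% at 24 h. The antisense share of Lyz2 was 0.247 to 0.349% and 0.0348 to 0.0945% in the same libraries.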

How the results depend on the processing

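Of 1093 log2 fold changes of the 6 genes recomputed under the alternatives, 1032 kept their direction and side of the threshold, 30 newly passed it, 14 no longer did and 17 changed sign; the cause was not tested. Without TMM, Lyz1 at 24 h was -0.09, Lyz2 at 24 h -0.04, Lyz2 between 1 h and 4 h -0.34 (adjusted p = 2.89e-04) and Lyz2 between 4 h and 12 h 0.15. Lyz2 between 1 h and 4 h was also -0.02 without the low-count filter and -0.00 in a fit of the groups compared. Leaving out 1 library gave -1.0 to 0.17 for Hp at 1 h, -0.05 to 1.36 for Hp at 4 h, -0.80 to 0.98 for Hp between RAW264.7 and BMDM controls, -0.28 to 0.13 for Lyz1 between IFN-γ-LPS and IL-13, -0.05 to 0.30 for Lyz1 at 24 h and -0.05 to 0.06 for Lyz2 between 1 h and 4 h. None of these changes passed the threshold as reported.

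At an adjusted p of 0.05 with no fold cutoff, the number of the 6 genes called was 4 at 1 h, 4 at 4 h, 6 between 12 h and 24 h, 1 with IL-4, 2 with IL-13, 2 with LPS in RAW264.7 cells and 4 between RAW264.7 and BMDM controls. At 1 h it was 2 without the low-count filter and 2 in 1 fit of all 25 samples. For IL-13 it was 0 with DESeq2 and 0 in a fit of the groups compared. Between RAW264.7 and BMDM controls it was 1 with DESeq2, 1 without TMM, 1 without the filter, 1 with the replicate block and 1 in a fit of the groups compared, the call lost being Ptx3 (adjusted p = 0.01 with the block). For the difference between the LPS changes it was 1 with DESeq2. Leaving out 1 library gave 1 to 2 of the 6 genes at 1 h (2, with Ptx3, without control replicate 3 or 1 h replicate 2), 2 to 3 at 4 h (3, with Slpi, without control replicate 2 or 4 h replicate 3), 1 to 2 between 12 h and 24 h (2, with Hp, without 12 h replicate 3), 0 to 1 with IL-13 and 1 to 2 between RAW264.7 and BMDM controls.

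At an adjusted p of 0.05 with no fold cutoff, 3427, 5881, 5407 and 5285 of all genes passed at 1, 4, 12 and 24 h, 4708, 4464 and 2111 in the steps between them, 1191 with IL-4, 1490 with IL-13, 5313 and 5331 for IFN-γ-LPS against each, 3523 with LPS in RAW264.7 cells, 7730 between the controls and 3528 for the difference. Between IL-13 and IL-4, 6 genes passed as reported, 19 at that threshold, 3 with DESeq2 and 2 without IL-4 replicate 3. With the replicate block, Hp between 12 h and 24 h came under an adjusted p of 0.01 (1.28, adjusted p = 1.50e-06) and Ptx3 between the controls did not, and no other of the 75 member values changed side of 0.01. Without TMM the share of higher calls moved by over 10 points in 10 of 15 comparisons, at 4 h from 49.8% to 29.1%. Low counts limit Hp, Ptx3 and Slpi in control BMDMs (7, 6 and 3 counts).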
